A study of Arabidopsis thaliana with 20 samples.

Results

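The WRKY genes encode one of the large transcription factor families of plants, and 53 of them were followed in shoots of Arabidopsis thaliana, out of 32833 genes in the count table. Members were matched by identifier to a list of WRKY genes, which leaves out the 3 fused to immune receptor domains (WRKY16, WRKY19 and WRKY52) and 16 other annotated WRKY genes, and 20 RNA-seq libraries in 7 groups were available. DANGEROUS MIX (DM) genes are immune loci whose natural alleles trigger autoimmunity when they meet in one plant. In the autoimmune lines a DM gene pair had been introduced into Col-0, the reference accession, as a transgene construct. The promoters of the constructs, the number of independent transformants and the number of plants per library are not given in the sources used here. The groups were DM1-DM2d at 12 days after sowing (DAS, n = 3) with Col-0 at 12 DAS (n = 2), and DM6-DM7 at 14 DAS (n = 3) with Col-0 at 14 DAS (n = 3). Label batch 3 held 3 libraries each of the groups DM1-DM2d adr1s and DM6-DM7 adr1s with their control Col-0 adr1s, where adr1s stands for a CRISPR-Cas9 knockout of all 3 ADR1 genes (ADR1, ADR1-L1 and ADR1-L2), and the sample titles gave these groups no age. Aerial tissue of plants grown on agar medium was collected, per the protocols at 12 DAS for DM1-DM2d and 14 DAS for DM6-DM7. The replicates were labelled biological replicates, and p-values measure the spread between them.

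WRKY proteins are named after a conserved peptide in their DNA-binding domain and bind the W-box, a short promoter element with the core TTGAC. The family is divided by the number of WRKY domains and the type of zinc finger into groups I, IIa to IIe and III. In leaves many members are induced by pathogens and by the hormone salicylic acid; some activate defence genes, others repress them, and several bind promoters of their own family. ADR1 proteins are helper receptors that relay signals of many immune receptors through EDS1 and PAD4.

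Several WRKY proteins bind promoters of their own family, so the 250 bases upstream of the annotated start are shown for some members. These are the group III members with at least 2 W-boxes, WRKY33, and WRKY38, which had no W-box and the largest rise among the 53 members in DM1-DM2d. Capitals mark a W-box, TTGACC or TTGACT, or its reverse complement (GGTCAA or AGTCAA). The sequences are from RefSeq, build TAIR10.1, and are written along the strand of the gene, at chr5:8154711-8154960, minus strand (WRKY30), chr2:16107985-16108234, plus strand (WRKY33), chr5:7496991-7497240, minus strand (WRKY38), chr4:6758848-6759097, plus strand (WRKY41), chr4:12393983-12394232, minus strand (WRKY53) and chr5:352096-352345, minus strand (WRKY62).
WRKY30: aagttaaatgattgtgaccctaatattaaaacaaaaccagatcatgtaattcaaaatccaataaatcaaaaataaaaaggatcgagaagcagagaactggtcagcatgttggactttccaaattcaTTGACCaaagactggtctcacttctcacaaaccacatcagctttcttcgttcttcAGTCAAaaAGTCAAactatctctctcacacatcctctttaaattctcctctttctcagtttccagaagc
WRKY33: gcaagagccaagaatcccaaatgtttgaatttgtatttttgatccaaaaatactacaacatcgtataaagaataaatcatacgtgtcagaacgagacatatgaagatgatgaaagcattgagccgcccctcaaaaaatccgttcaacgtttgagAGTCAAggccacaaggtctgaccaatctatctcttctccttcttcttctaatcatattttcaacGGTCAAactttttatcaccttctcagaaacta
WRKY38: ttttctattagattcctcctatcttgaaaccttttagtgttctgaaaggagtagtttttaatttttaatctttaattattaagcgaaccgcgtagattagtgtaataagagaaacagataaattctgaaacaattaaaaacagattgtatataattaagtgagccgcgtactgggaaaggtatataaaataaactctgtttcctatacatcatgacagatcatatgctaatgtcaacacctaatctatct
WRKY41: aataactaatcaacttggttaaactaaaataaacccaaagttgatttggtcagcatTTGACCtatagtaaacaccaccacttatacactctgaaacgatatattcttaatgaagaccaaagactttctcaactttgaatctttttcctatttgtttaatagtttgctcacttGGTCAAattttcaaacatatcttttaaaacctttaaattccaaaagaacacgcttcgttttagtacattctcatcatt
WRKY53: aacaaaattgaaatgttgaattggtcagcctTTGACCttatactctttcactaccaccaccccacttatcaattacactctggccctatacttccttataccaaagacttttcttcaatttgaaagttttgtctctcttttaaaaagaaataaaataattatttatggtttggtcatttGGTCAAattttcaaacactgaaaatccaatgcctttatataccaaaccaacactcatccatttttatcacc
WRKY62: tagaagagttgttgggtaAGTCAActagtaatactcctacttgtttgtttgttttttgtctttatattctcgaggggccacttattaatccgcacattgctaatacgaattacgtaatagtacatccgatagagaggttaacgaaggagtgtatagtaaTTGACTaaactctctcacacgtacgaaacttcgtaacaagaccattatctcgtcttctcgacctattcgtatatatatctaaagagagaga
WRKY30 had 3 W-boxes in this stretch and WRKY33, WRKY41, WRKY53 and WRKY62 had 2 each. In windows of 300 bases, from 250 before the start to 50 after it, 19 of the 53 members (35.8%) held a W-box, as did 32.4% of 27443 nuclear protein-coding genes. At least 2 W-boxes were found in 18.9% of the members and 7.7% of all those genes. Of the 34 members that rose in both autoimmune lines 38.2% had a W-box, and of the other 19 members 31.6%. The core TTGAC alone, which both motifs contain, was in 60.4% of the members and 50.5% of all genes. These are matches of letters in one window; binding was not measured.

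The libraries held 48360933 to 127276992 counts, and values below are counts scaled to 1e+06 per library (CPM) after TMM scaling. A floor of 3 counts was 0.0240 to 0.0576 CPM per library; bounds and intervals here cover counting error only. The edited genes still gave reads: ADR1 averaged 62.1 ± 4.89 CPM in DM1-DM2d adr1s, 37.5 ± 6.42 CPM in DM6-DM7 adr1s and 10.1 ± 2.08 CPM in Col-0 adr1s (SD, n = 3 each), so the knockout rests on the labels. ADR1-L1 had 53.6 to 60.1, 93.5 to 126 and 29.8 to 32.4 CPM in these groups, and ADR1-L2 26.0 to 26.5, 14.1 to 19.3 and 11.9 to 20.0 CPM. With the genes intact, ADR1 had 182 to 191 CPM in DM1-DM2d and 78.5 to 87.8 CPM in DM6-DM7. ADR1-L1 had 512 to 567 and 255 to 271 CPM in these lines, and ADR1-L2 186 to 203 and 106 to 110 CPM. Plastid-encoded genes took 10.9% of counts in DM1-DM2d and 42.0% in Col-0 12 DAS, and under 0.2% in the other groups; leaving out organelle genes, an alternative chosen after seeing the data, changed no call of a named WRKY gene. The summed level of 4 leaf markers (RBCS1A, LHCB1.3, RCA and LHCA1) was 1640 to 1991 CPM in DM1-DM2d, against 38988 to 39859 CPM in Col-0 12 DAS and 26135 to 32187 CPM in DM6-DM7, against 81918 to 109215 CPM in Col-0 14 DAS, and all 4 fell in each. The 4 leaf markers also fell in both knockout lines. The senescence markers were SAG12, SAG13, SGR1, ORE1, NYC1 and PAO. They summed to 2103 to 2169 CPM in DM1-DM2d, against 447 to 463 CPM in Col-0 12 DAS. In DM6-DM7 they summed to 952 to 1003 CPM, against 239.7 to 282 CPM in Col-0 14 DAS. They summed to 354 to 389 CPM in DM1-DM2d adr1s and 262 to 303 CPM in DM6-DM7 adr1s, against 181 to 200.4 CPM in Col-0 adr1s. NYC1 alone had 1046, 1175 and 1115 CPM in DM1-DM2d, against 325 and 354 CPM in Col-0 12 DAS. SAG12 did not share these rises: it had 0, 0.0234 and 0.0229 CPM in DM1-DM2d and at most 0.280 CPM in any library. The 8 root markers summed to at most 3.92 CPM in any library, with RHD6 and EXPA18 at 0 in DM1-DM2d, Col-0 12 DAS, DM1-DM2d adr1s and Col-0 adr1s. Floral markers summed to 3.11 to 32.8 CPM. The part of these markers in the WRKY results was not tested.

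Summed over the family, WRKY transcripts were most abundant in DM1-DM2d. The 53 members reached 5295 ± 225 CPM in DM1-DM2d (SD, n = 3), against 994 ± 213 CPM in Col-0 12 DAS (n = 2). DM6-DM7 had 2062 ± 66.6 CPM and Col-0 14 DAS 577 ± 139 CPM (n = 3 each). In the knockout background the sums were 939.9 ± 50.1 CPM for DM1-DM2d adr1s and 790.3 ± 107 CPM for DM6-DM7 adr1s, against 384 ± 16.5 CPM for Col-0 adr1s. Per kilobase of exon, WRKY70 was the top member in all 4 groups that carried a DM pair, at 571 CPM per kb in DM1-DM2d and 167 CPM per kb in DM6-DM7, with 55.1 CPM per kb for DM1-DM2d adr1s and 55.2 CPM per kb for DM6-DM7 adr1s. WRKY33 led in Col-0 12 DAS (97.0 CPM per kb) and Col-0 14 DAS (37.8), and WRKY15 in Col-0 adr1s (18.8).

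The 3 Col-0 groups themselves differed, which matters because each is a control. The mean was highest in Col-0 12 DAS for 38 of the 53 members, in Col-0 14 DAS for 8 and in Col-0 adr1s for 7. WRKY40 had 34.3 and 78.9 CPM in Col-0 12 DAS, 22.0, 14.9 and 3.02 CPM in Col-0 14 DAS and 2.15, 1.63 and 2.98 CPM in Col-0 adr1s. WRKY53 had 21.2 and 78.5, 29.9, 7.72 and 2.65 and 2.01, 2.27 and 2.79 CPM in the same groups. Libraries of one Col-0 group were themselves several times apart on such genes. Label batch, age and the knockout differ together between these controls and cannot be told apart.

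The first comparison asked which WRKY genes changed when DM1-DM2d acted with the ADR1 genes intact. Of the 53 members, all of which passed the filter on low counts, 36 rose and 6 fell at a Benjamini-Hochberg adjusted p under 0.05 in edgeR's quasi-likelihood test. Across 23349 genes tested, 36.6% were higher and 36.4% lower. With upper-quartile scaling 35 rose and 10 fell. The median log2 fold change of the members was 1.76, against 0.0046 over all genes. In DM6-DM7, 43 members rose and 2 fell, against 35.0% higher and 29.7% lower among all genes, with a median of 2.16 for the members and 0.06 for all genes. The members called higher in both lines numbered 34, which is 94.4% of the 36 in DM1-DM2d and 79.1% of the 43 in DM6-DM7. The same overlap was not counted over all genes, so whether it is particular to the family was not tested. Only members with few reads in Col-0 could have passed the filter through the autoimmune line alone. The Col-0 14 DAS libraries stood further apart from one another than replicates of any other group, with a chi-square per gene between pairs of 99.7 to 382, against 8.07 to 51.2 elsewhere. Without one of them 40 to 46 members rose and 2 fell in DM6-DM7. With at least 10 counts in every control library, 30 of 47 members rose and 6 fell in DM1-DM2d, and 37 of 47 rose and 2 fell in DM6-DM7. In whole shoots, fewer cells of a type and less RNA per cell cannot be told apart.

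**Figure D1:**
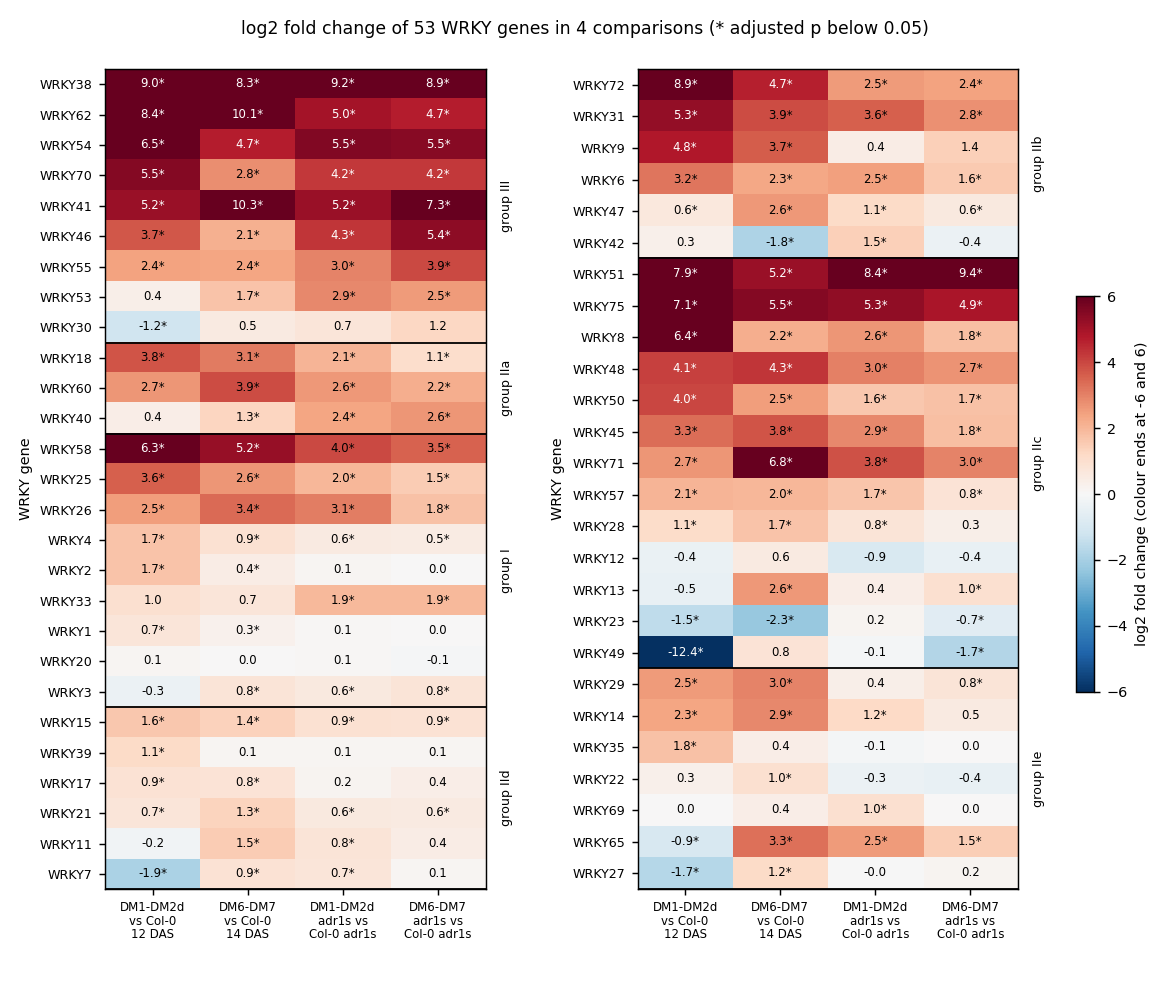
Log2 fold changes of the 53 WRKY genes (rows, by family group) in the 4 comparisons with Col-0 (columns). Red is higher and blue lower than Col-0, and the colour scale is capped, so the largest changes share a shade. The number is the log2 fold change and an asterisk marks an adjusted p under 0.05 (edgeR quasi-likelihood test). Red fills most of groups III, IIa, IIb and IIc in all columns, while WRKY7, WRKY27 and WRKY65 are blue in DM1-DM2d and red in DM6-DM7; values of genes with no counts in one group (WRKY41, WRKY49) are fitted values and not bounds.

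Group III holds the WRKY factors most closely tied to salicylic acid, and it had the highest group median in DM1-DM2d. Of the 9 group III genes among the 53 members, 7 rose and 1 fell in DM1-DM2d (median 5.17), and 8 rose in DM6-DM7 (median 2.80). In DM6-DM7 groups IIb (3.13) and IIa (3.10) had higher medians. WRKY70 (AT3G56400; chromosome 3, 20908711 to 20910623), a node between salicylic acid and jasmonate signalling, had 839, 876 and 805 CPM in DM1-DM2d, against 25.2 and 12.1 CPM in Col-0 12 DAS (log2 fold change 5.49, SE 0.49, adjusted p = 4.71e-08). In DM6-DM7 it had 266, 238 and 231 CPM, against 27.6, 57.6 and 20.1 CPM in Col-0 14 DAS (log2 fold change 2.80, SE 0.36, adjusted p = 5.79e-06). No DM library reached down to its controls, and the DM1-DM2d libraries stood above all others. WRKY54 (AT2G40750; chromosome 2, 17000419 to 17002528), its closest relative, which acts with WRKY70 in holding back senescence, had 175, 175 and 168 CPM in DM1-DM2d, against 2.34 and 1.42 CPM in Col-0 12 DAS (log2 fold change 6.52, SE 0.43, adjusted p = 7.81e-10). It had 37.1, 38.9 and 46.7 CPM in DM6-DM7 and 1.24, 2.01 and 1.48 CPM in Col-0 14 DAS (log2 fold change 4.69, SE 0.33, adjusted p = 5.6e-09). Every library with a DM pair lay far above every Col-0 library for this gene.

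WRKY38 (AT5G22570; chromosome 5, 7495455 to 7496990) and WRKY62 (AT5G01900; chromosome 5, 350925 to 352095) encode related repressors of basal defence that bind the histone deacetylase HDA19. WRKY38 had 109.7, 103 and 101 CPM in DM1-DM2d, against 0.362 and 0.0318 CPM in Col-0 12 DAS (log2 fold change 9.02, SE 0.66, adjusted p = 4.05e-09). The DM6-DM7 libraries had 46.3, 47.2 and 41.5 CPM, against 0.0801, 0.228 and 0.0939 CPM in Col-0 14 DAS (log2 fold change 8.34, SE 0.54, adjusted p = 3.01e-09). The gene was nearly silent in Col-0 and among the well-expressed members in both lines. Its DM1-DM2d change was 11.56 without Col-0 12 DAS replicate 1 and 8.08 without replicate 2. WRKY62 had 39.7, 41.4 and 42.6 CPM in DM1-DM2d, against 0.0604 and 0.191 CPM in Col-0 12 DAS (log2 fold change 8.36, SE 0.77, adjusted p = 5.28e-08); leaving out either control library gave 7.69 or 9.30. In DM6-DM7 it had 11.3, 9.18 and 7.53 CPM, against 0.0200, 0 and 0 CPM in Col-0 14 DAS, which is 3143 counts against 2 and a ratio of 1344 with a 95% interval of 372 to 11106 from counting. WRKY62 was thus detected in one Col-0 14 DAS library only.

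WRKY46 (AT2G46400; chromosome 2, 19043411 to 19044955), which acts with WRKY70 and WRKY53 in basal resistance to Pseudomonas, had 197, 208 and 182 CPM in DM1-DM2d, against 20.1 and 9.85 CPM in Col-0 12 DAS (log2 fold change 3.71, SE 0.51, adjusted p = 7.51e-06). The DM6-DM7 libraries had 57.0, 57.3 and 61.3 CPM, against 13.7, 20.9 and 5.05 CPM in Col-0 14 DAS (log2 fold change 2.14, SE 0.41, adjusted p = 0.000251). WRKY41 (AT4G11070; chromosome 4, 6759098 to 6760794), a gene induced by bacterial flagellin, had 3.69, 2.63 and 3.88 CPM in DM1-DM2d, against 0.0906 and 0.0955 CPM in Col-0 12 DAS (log2 fold change 5.17, SE 0.45, adjusted p = 1.45e-07). Its Col-0 14 DAS libraries held no count, and 665 counts over the DM6-DM7 libraries made it at least 190-fold higher there, with the floor at 3 counts over the group. For both genes the groups did not overlap. WRKY55, next to WRKY54 on chromosome 2 and known to promote senescence, had 2.38, 2.67 and 1.90 CPM in DM1-DM2d, against 0.724 and 0.143 CPM in Col-0 12 DAS (log2 fold change 2.41, SE 0.75, adjusted p = 0.00815). That call was lost without Col-0 12 DAS replicate 2 (1.59, adjusted p = 0.120 with edgeR), and the change was 3.95 without replicate 1. In DM6-DM7 WRKY55 rose by 2.38 ± 0.63 (SE, adjusted p = 0.00303), or by 3.22 without Col-0 14 DAS replicate 2.

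WRKY53 and WRKY30 behaved differently from the rest of group III. WRKY53 (AT4G23810; chromosome 4, 12392370 to 12393982), a regulator of leaf senescence, had 72.6, 57.7 and 60.5 CPM in DM1-DM2d, against 21.2 and 78.5 CPM in Col-0 12 DAS, and did not pass the test (log2 fold change 0.35, SE 0.67, adjusted p = 0.651). The DM1-DM2d values lay between the 2 Col-0 libraries. In DM6-DM7 it had 45.0, 38.4 and 49.2 CPM, against 29.9, 7.72 and 2.65 CPM in Col-0 14 DAS (log2 fold change 1.72, SE 0.61, adjusted p = 0.0224). The DM6-DM7 call was lost without DM6-DM7 replicate 3 (adjusted p = 0.0574) or Col-0 14 DAS replicate 2 (0.0862) or 3 (0.0620), with changes of 1.56, 1.38 and 1.17, and the change was 3.08 without Col-0 14 DAS replicate 1. When only the libraries of the comparison were fitted, this call was also lost (1.66, adjusted p = 0.117 with edgeR). WRKY30 (AT5G24110), induced by oxidative stress, was the only group III member called lower in DM1-DM2d, with 2.25, 2.02 and 1.53 CPM, against 2.78 and 6.03 CPM in Col-0 12 DAS (log2 fold change -1.19, SE 0.47, adjusted p = 0.0313). That call was lost without DM1-DM2d replicate 2 (-1.22, adjusted p = 0.0575), DM1-DM2d replicate 3 (-1.08, 0.0845) or Col-0 12 DAS replicate 2 (-0.61, 0.369). In DM6-DM7 WRKY30 did not pass (log2 fold change 0.53, SE 0.42, adjusted p = 0.283).

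**Figure D2:**
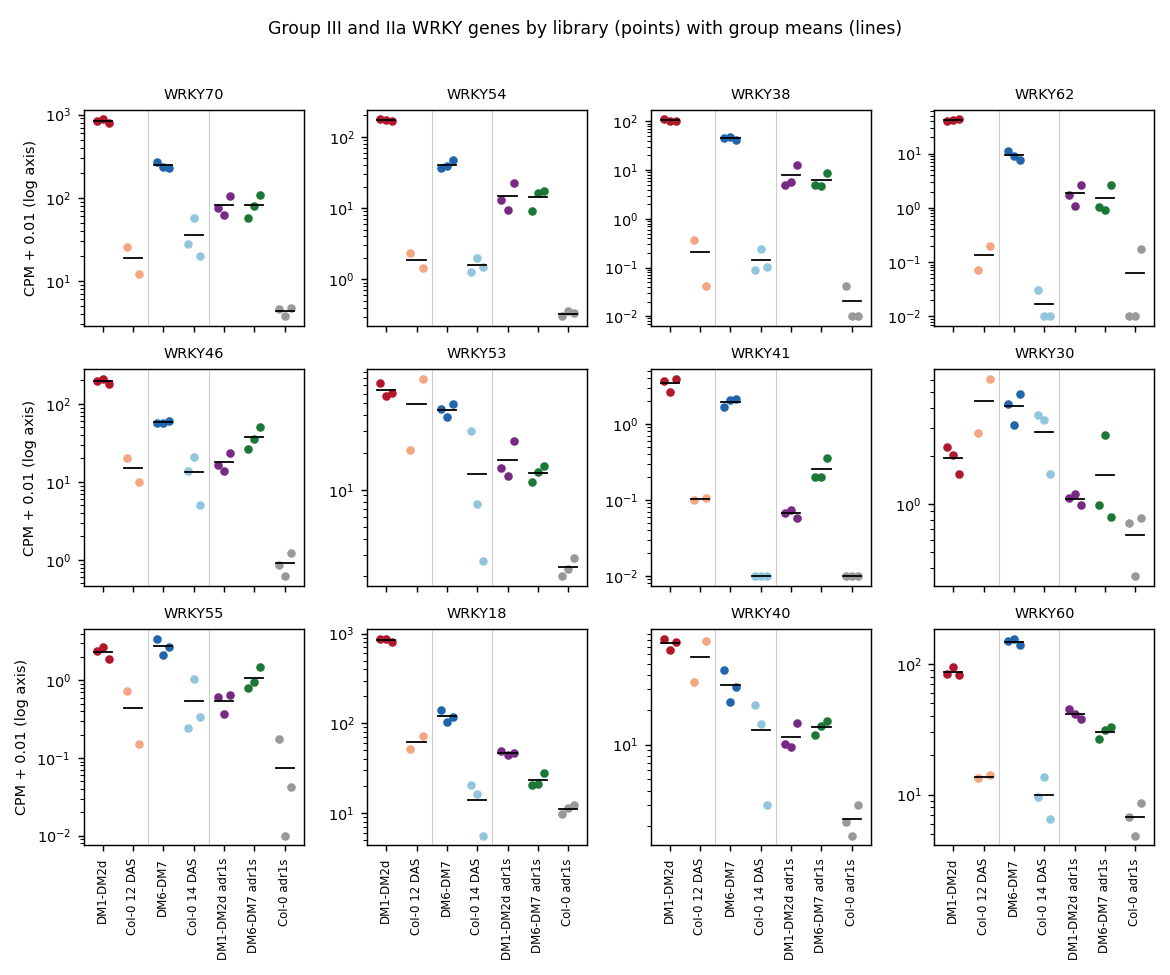
Levels of the 9 group III and 3 group IIa WRKY genes among the 53 members, in every library (points), with the group mean as a line. The axis is CPM plus 0.01 on a log scale, so a library without counts sits at 0.01. Each DM group stands left of its control. WRKY70, WRKY54, WRKY38 and WRKY46 lie above their own controls in all 4 DM groups, and Col-0 libraries of WRKY53 and WRKY40 spread widely.

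The 3 members of group IIa, WRKY18, WRKY40 and WRKY60, bind one another and act together as repressors of defence. WRKY18 (AT4G31800; chromosome 4, 15382777 to 15385100) had 876, 871 and 799 CPM in DM1-DM2d, against 51.8 and 73.2 CPM in Col-0 12 DAS (log2 fold change 3.76, SE 0.40, adjusted p = 2.93e-07). The DM6-DM7 libraries had 142, 105 and 117 CPM, against 20.6, 16.2 and 5.62 CPM in Col-0 14 DAS (log2 fold change 3.10, SE 0.33, adjusted p = 5.63e-07). The libraries of each line lay far above their controls. WRKY60 (AT2G25000) had 149, 156 and 139 CPM in DM6-DM7, against 9.67, 13.6 and 6.53 CPM in Col-0 14 DAS (log2 fold change 3.89, SE 0.23, adjusted p = 6.31e-10), and it also rose in DM1-DM2d, by 2.67 ± 0.25 (SE, adjusted p = 5.93e-08). WRKY40 (AT1G80840) had 81.8, 65.3 and 77.0 CPM in DM1-DM2d, against 34.3 and 78.9 CPM in Col-0 12 DAS, and did not pass (log2 fold change 0.40, SE 0.54, adjusted p = 0.522). The higher Col-0 library lay within the DM1-DM2d range. In DM6-DM7 it had 43.8, 23.3 and 31.6 CPM, against 22.0, 14.9 and 3.02 CPM in Col-0 14 DAS (log2 fold change 1.3, SE 0.49, adjusted p = 0.0298). All 3 DM6-DM7 libraries lay above the controls, but the call was lost without DM6-DM7 replicate 1 (0.97, adjusted p = 0.128) or 3 (1.24, 0.0636), or without Col-0 14 DAS replicate 2 (1.33, 0.0531) or 3 (0.75, 0.0636). In edgeR it was also lost with upper-quartile scaling (1.10, adjusted p = 0.0604) and when only the libraries of the comparison were fitted (1.24, 0.150).

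Among the 9 group I members, which carry a pair of WRKY domains, 6 rose in DM1-DM2d and 7 in DM6-DM7, and none was called lower. WRKY33 (AT2G38470; chromosome 2, 16108235 to 16110766), the activator of camalexin synthesis and a substrate of MPK3 and MPK6, was abundant but did not pass in either line. It had 422, 385 and 352 CPM in DM1-DM2d, against 120.0 and 273 CPM in Col-0 12 DAS (log2 fold change 0.97, SE 0.47, adjusted p = 0.0747), and 143, 109 and 130.0 CPM in DM6-DM7, against 141, 59.9 and 29.5 CPM in Col-0 14 DAS (log2 fold change 0.73, SE 0.41, adjusted p = 0.131). All DM1-DM2d libraries exceeded their controls, whereas the highest Col-0 14 DAS library lay within the DM6-DM7 range. WRKY25 (AT2G30250), which acts with WRKY26 and WRKY33 in heat tolerance, had 196, 182 and 171 CPM in DM1-DM2d, against 17.0 and 13.2 CPM in Col-0 12 DAS (log2 fold change 3.60, SE 0.19, adjusted p = 1.44e-11). It rose by 2.64 ± 0.15 (SE, adjusted p = 3.49e-10) in DM6-DM7. Its groups were far apart in both lines, with a small spread between replicates. WRKY58 (AT3G01080), a repressor of systemic acquired resistance, had 36.7, 39.9 and 32.6 CPM in DM1-DM2d, against 0.558 and 0.334 CPM in Col-0 12 DAS (log2 fold change 6.34, SE 0.63, adjusted p = 1.12e-07), and rose by 5.21 ± 0.51 (SE, adjusted p = 2.13e-07) in DM6-DM7. WRKY20 (AT4G26640) stayed between 30.7 and 42.7 CPM in all 20 libraries and was called in none of the 4 comparisons with Col-0.

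Groups IIb and IIc held further large changes. Of the 6 members of group IIb 5 rose in each line, and of the 13 members of group IIc 9 rose and 2 fell in DM1-DM2d, and 10 rose and 1 fell in DM6-DM7. WRKY72 (AT5G15130; chromosome 5, 4904290 to 4907094), needed for basal resistance in Arabidopsis and tomato, had 157, 156 and 122 CPM in DM1-DM2d, against 0.332 and 0.255 CPM in Col-0 12 DAS (log2 fold change 8.94, SE 0.47, adjusted p = 3.03e-11). The DM6-DM7 libraries had 6.45, 8.40 and 10.3 CPM, against 0.240, 0.371 and 0.376 CPM in Col-0 14 DAS (log2 fold change 4.67, SE 0.33, adjusted p = 5.32e-09). Both lines were clear of their controls, and DM1-DM2d stood far above DM6-DM7. WRKY6 (AT1G62300), a repressor of the phosphate exporter gene PHO1, rose by 3.23 ± 0.32 (SE, adjusted p = 1.11e-07) in DM1-DM2d and 2.30 ± 0.26 (SE, adjusted p = 1.14e-06) in DM6-DM7. WRKY51 (AT5G64810; chromosome 5, 25908247 to 25909881), a repressor of jasmonate responses with its relative WRKY50, had 183, 207 and 202 CPM in DM1-DM2d, against 1.45 and 0.143 CPM in Col-0 12 DAS (log2 fold change 7.94, SE 0.91, adjusted p = 9.12e-07). Its change was 10.36 without Col-0 12 DAS replicate 1 and 7.01 without replicate 2, and in DM6-DM7 it rose by 5.20 ± 0.68 (SE, adjusted p = 7.24e-06). WRKY75 (AT5G13080; chromosome 5, 4149738 to 4151201), a regulator of phosphate starvation responses and of senescence, had 168, 167 and 172 CPM in DM1-DM2d, against 1.81 and 0.685 CPM in Col-0 12 DAS (log2 fold change 7.07, SE 0.58, adjusted p = 1.65e-08); single Col-0 libraries moved it between 6.46 and 7.89. In DM6-DM7 WRKY75 rose by 5.50 ± 0.47 (SE, adjusted p = 6.25e-08), or by 6.29 without Col-0 14 DAS replicate 2.

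WRKY8 (AT5G46350), a regulator of salt stress and antiviral responses, had 189, 179 and 168 CPM in DM1-DM2d, against 3.26 and 0.955 CPM in Col-0 12 DAS (log2 fold change 6.40, SE 0.51, adjusted p = 1.06e-08). In DM6-DM7 it had 10.0, 10.4 and 12.3 CPM, against 1.82, 3.35 and 2.13 CPM in Col-0 14 DAS (log2 fold change 2.16, SE 0.36, adjusted p = 6.66e-05). The groups did not overlap in either line, and every DM1-DM2d library lay above every DM6-DM7 library. WRKY71 (AT1G29860), a promoter of shoot branching, had 2.73, 3.85 and 3.44 CPM in DM6-DM7, against 0, 0.0190 and 0.0705 CPM in Col-0 14 DAS (log2 fold change 6.82, SE 0.52, adjusted p = 6.38e-09); the change was 8.13 without Col-0 14 DAS replicate 3. WRKY48 (AT5G49520), a repressor of basal defence, rose by 4.11 ± 0.36 (SE, adjusted p = 2.24e-08) in DM1-DM2d and 4.30 ± 0.30 (SE, adjusted p = 4.97e-09) in DM6-DM7. WRKY45 (AT3G01970), an activator of the phosphate transporter gene PHT1;1, rose by 3.35 ± 0.27 (SE, adjusted p = 6.01e-09) in DM1-DM2d and 3.75 ± 0.23 (SE, adjusted p = 1.03e-09) in DM6-DM7.

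Groups IId and IIe had the lowest group medians in DM1-DM2d, 0.78 and 0.30, and medians of 1.09 and 1.16 in DM6-DM7, where group I was lower at 0.77. Group IId proteins bind calmodulin, and WRKY7, WRKY11 and WRKY17 among them dampen basal resistance. WRKY15 (AT2G23320), a modulator of growth under oxidative stress, rose by 1.62 ± 0.21 (SE, adjusted p = 2.74e-06) in DM1-DM2d and 1.40 ± 0.18 (SE, adjusted p = 4.42e-06) in DM6-DM7. WRKY21 (AT2G30590) had 41.1, 44.8 and 40.0 CPM in DM6-DM7, against 17.0, 14.6 and 18.5 CPM in Col-0 14 DAS (log2 fold change 1.33, SE 0.088, adjusted p = 1.3e-09). The groups were well apart with this modest change. In group IIe, WRKY29 (AT4G23550), placed with WRKY22 downstream of the flagellin MAP kinase cascade, had 38.8, 33.4 and 26.9 CPM in DM1-DM2d, against 5.24 and 6.14 CPM in Col-0 12 DAS (log2 fold change 2.54, SE 0.33, adjusted p = 2.05e-06). WRKY22 did not pass in DM1-DM2d (log2 fold change 0.30, SE 0.30, adjusted p = 0.387) and rose by 0.96 ± 0.27 (SE, adjusted p = 0.0049) in DM6-DM7. WRKY14 (AT1G30650) rose by 2.35 ± 0.26 (SE, adjusted p = 2.53e-07) in DM1-DM2d and 2.90 ± 0.22 (SE, adjusted p = 6.38e-09) in DM6-DM7.

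Members that fell were few, and 3 of them moved in opposite directions in the 2 lines. Opposite calls were not counted over all genes. WRKY7 (AT4G24240; chromosome 4, 12571538 to 12573783) had 6.20, 5.27 and 5.05 CPM in DM1-DM2d, against 18.8 and 22.8 CPM in Col-0 12 DAS (log2 fold change -1.92, SE 0.17, adjusted p = 2e-08), and 31.2, 35.4 and 43.2 CPM in DM6-DM7, against 25.5, 19.8 and 15.3 CPM in Col-0 14 DAS (log2 fold change 0.86, SE 0.16, adjusted p = 0.000117). WRKY27 (AT5G52830; chromosome 5, 21410769 to 21412526), known for its part in bacterial wilt symptoms, had 1.76, 1.81 and 1.65 CPM in DM1-DM2d, against 5.58 and 5.70 CPM in Col-0 12 DAS (log2 fold change -1.70, SE 0.18, adjusted p = 2.12e-07), and 5.75, 5.70 and 5.74 CPM in DM6-DM7, against 3.05, 2.21 and 2.41 CPM in Col-0 14 DAS (log2 fold change 1.16, SE 0.17, adjusted p = 1.02e-05). WRKY65 (AT1G29280; chromosome 1, 10236337 to 10237990) had 4.05, 3.82 and 3.39 CPM in DM1-DM2d, against 6.20 and 8.25 CPM in Col-0 12 DAS (log2 fold change -0.94, SE 0.22, adjusted p = 0.00105), and 11.7, 17.8 and 17.9 CPM in DM6-DM7, against 1.64, 1.96 and 1.16 CPM in Col-0 14 DAS (log2 fold change 3.31, SE 0.22, adjusted p = 1.36e-09). In all 3 genes every DM1-DM2d library was below and every DM6-DM7 library above its controls.

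WRKY23 (AT2G47260; chromosome 2, 19404802 to 19407098), an auxin-responsive gene of root development, was the one member called lower in both lines. It had 2.52, 2.20 and 2.53 CPM in DM1-DM2d, against 6.64 and 7.32 CPM in Col-0 12 DAS (log2 fold change -1.53, SE 0.22, adjusted p = 7.01e-06), and 0.744, 1.20 and 1.3 CPM in DM6-DM7, against 5.56, 4.23 and 5.72 CPM in Col-0 14 DAS (log2 fold change -2.25, SE 0.21, adjusted p = 7.33e-08). The groups did not overlap in either comparison. WRKY49 (AT5G43290; chromosome 5, 17371808 to 17373221) had no count in any DM1-DM2d library and 9.52 and 8.02 CPM in Col-0 12 DAS, which is 0 against 1135 counts and at least 775-fold lower with the floor at 3 counts over the group. In DM6-DM7 it did not pass (log2 fold change 0.82, SE 0.35, adjusted p = 0.0506). DM1-DM2d was the only group with no WRKY49 count. WRKY42 (AT4G04450), which like WRKY6 represses PHO1, fell in DM6-DM7, with 0.548, 0.128 and 0.196 CPM, against 0.951, 1.03 and 1.14 CPM in Col-0 14 DAS (log2 fold change -1.85, SE 0.50, adjusted p = 0.00366); its change was -2.76 without DM6-DM7 replicate 1.

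**Figure D3:**
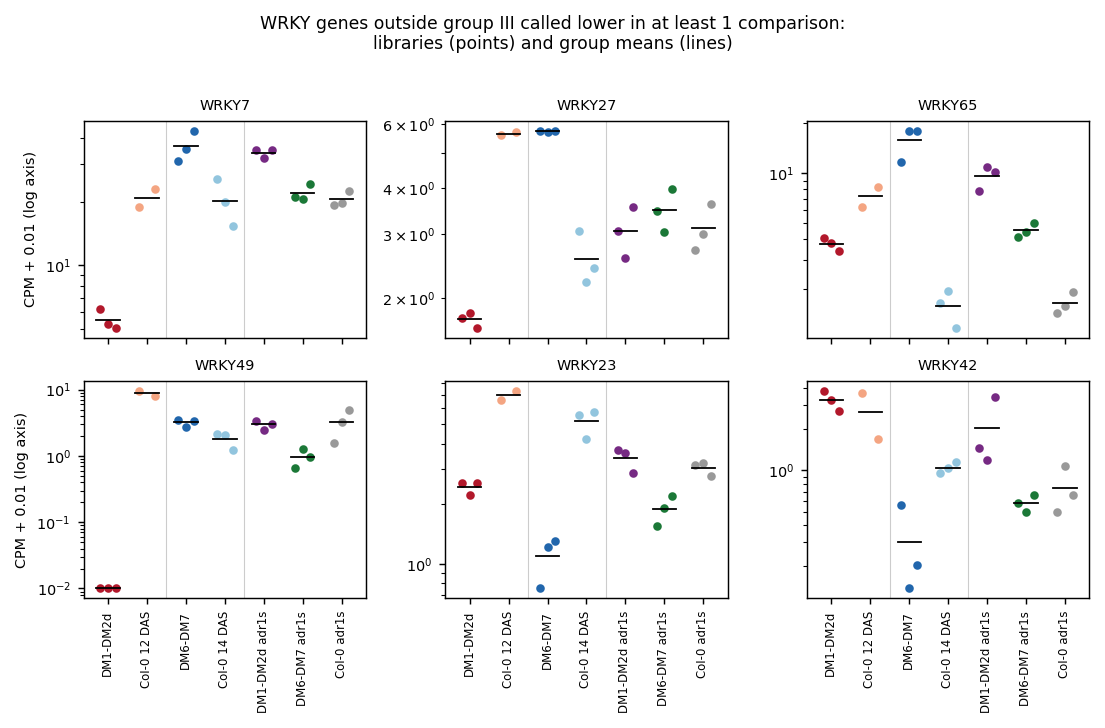
Levels of 6 WRKY genes outside group III that were called lower in at least 1 comparison, in every library (points; CPM plus 0.01 on a log axis) with group means as lines and each DM group left of its control. WRKY7, WRKY27 and WRKY65 are below Col-0 in DM1-DM2d and above it in DM6-DM7, and all 3 DM1-DM2d libraries of WRKY49 sit at the 0.01 that stands for no counts.

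The next comparisons asked what the DM pairs changed when the ADR1 genes were knocked out, with both lines set against the same 3 Col-0 adr1s libraries. The age of Col-0 adr1s is not given, and the protocols name different ages for the 2 pairs. Age may therefore go with the DM pair in these comparisons and cannot be told apart from it. In DM1-DM2d adr1s 38 members rose and none fell by edgeR at an adjusted p under 0.05, against 23.9% higher and 18.8% lower among all genes. No member was lower at an unadjusted p under 0.05 (0) or by DESeq2 (0), and 2 were lower when only the libraries of the comparison were fitted. In DM6-DM7 adr1s 34 rose and 2 fell, against 18.6% higher and 12.6% lower among all genes. The medians were 1.63 for DM1-DM2d adr1s and 1.23 for DM6-DM7 adr1s, against 0.03 and 0.02 over all genes. With at least 10 counts in every control library, 28 of 42 members rose and none fell in DM1-DM2d adr1s, and 24 of 42 rose and 2 fell in DM6-DM7 adr1s. In all, 27 members were called higher in each of the 4 comparisons with Col-0, of which the knockout ones share their control. WRKY12 and WRKY20 were called in none. The matching counts over all genes were not made.

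Group III had the highest group median in both knockout lines, 4.30 for DM1-DM2d adr1s and 4.72 for DM6-DM7 adr1s, with 8 of 9 members higher in each. WRKY70 had 75.3, 62.6 and 105 CPM in DM1-DM2d adr1s and 56.6, 78.6 and 108 CPM in DM6-DM7 adr1s, against 4.50, 3.73 and 4.67 CPM in Col-0 adr1s, and its changes were 4.24 ± 0.39 (SE, adjusted p = 7.42e-07) and 4.24 ± 0.39 (SE, adjusted p = 1.62e-06). WRKY54 had 12.8, 9.45 and 22.6 CPM in DM1-DM2d adr1s and 9.09, 16.5 and 17.2 CPM in DM6-DM7 adr1s, against 0.293, 0.346 and 0.324 CPM in Col-0 adr1s, with changes of 5.54 ± 0.39 (SE, adjusted p = 5.19e-08) and 5.47 ± 0.39 (SE, adjusted p = 1.68e-07). WRKY46 had 16.5, 14.0 and 23.2 CPM in DM1-DM2d adr1s and 26.2, 35.1 and 50.6 CPM in DM6-DM7 adr1s, against 0.848, 0.615 and 1.23 CPM in Col-0 adr1s, with changes of 4.30 ± 0.49 (SE, adjusted p = 5.09e-06) and 5.36 ± 0.50 (SE, adjusted p = 1.81e-06). For these 3 genes every knockout library with a DM pair lay above Col-0 adr1s and below the libraries of the same pair with the ADR1 genes intact.

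WRKY38 had 4.95, 5.81 and 12.6 CPM in DM1-DM2d adr1s and 5.01, 4.72 and 8.75 CPM in DM6-DM7 adr1s. Col-0 adr1s held 2 counts in all, so the ratios were 675 (95% counting interval 186 to 5576) and 537 (148 to 4436). WRKY51 likewise had 2 counts in Col-0 adr1s, with ratios of 370.3 (102 to 3063) in DM1-DM2d adr1s and 739 (204 to 6106) in DM6-DM7 adr1s. WRKY41 had no count in Col-0 adr1s and was at least 3.29-fold higher in DM1-DM2d adr1s (11 counts) and at least 14.2-fold higher in DM6-DM7 adr1s (47 counts). These 3 genes were close to silent in Col-0 adr1s. WRKY62 had 1.74, 1.08 and 2.68 CPM in DM1-DM2d adr1s and 1.02, 0.915 and 2.68 CPM in DM6-DM7 adr1s, against 0, 0 and 0.162 CPM in Col-0 adr1s, and rose by 4.97 ± 0.74 (SE, adjusted p = 5.43e-05) and 4.72 ± 0.75 (SE, adjusted p = 0.000167). Its control level came from 1 library, Col-0 adr1s replicate 3, without which the changes were 10.20 and 9.95. Without Col-0 adr1s replicate 1 they were 4.37 and 4.12, and without DM6-DM7 adr1s replicate 3 the second was 4.05. WRKY55 rose by 2.96 ± 0.80 (SE, adjusted p = 0.00646) for DM1-DM2d adr1s and 3.94 ± 0.79 (SE, adjusted p = 0.00103) in DM6-DM7 adr1s, and by 4.82 and 5.81 without Col-0 adr1s replicate 1.

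In group IIa all 3 members rose in both knockout lines. WRKY40 had 10.2, 9.52 and 15.2 CPM in DM1-DM2d adr1s and 12.1, 14.5 and 15.9 CPM in DM6-DM7 adr1s, against 2.15, 1.63 and 2.98 CPM in Col-0 adr1s, with changes of 2.36 ± 0.54 (SE, adjusted p = 0.00237) and 2.64 ± 0.54 (SE, adjusted p = 0.00163). WRKY18 had 48.8, 43.9 and 47.0 CPM in DM1-DM2d adr1s and 20.8, 21.4 and 28.2 CPM in DM6-DM7 adr1s, against 9.83, 11.4 and 12.5 CPM in Col-0 adr1s, with changes of 2.05 ± 0.32 (SE, adjusted p = 8.14e-05) and 1.06 ± 0.31 (SE, adjusted p = 0.0156). The DM6-DM7 adr1s call was lost without DM6-DM7 adr1s replicate 3 (0.91, adjusted p = 0.0614) or Col-0 adr1s replicate 1 (0.98, 0.0636). WRKY60 rose by 2.62 ± 0.22 (SE, adjusted p = 2.01e-07) for DM1-DM2d adr1s and 2.16 ± 0.22 (SE, adjusted p = 2.18e-06) in DM6-DM7 adr1s.

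WRKY33 had 46.8, 42.9 and 55.9 CPM in DM1-DM2d adr1s and 33.6, 53.4 and 59.4 CPM in DM6-DM7 adr1s, against 12.8, 11.4 and 13.9 CPM in Col-0 adr1s, and rose by 1.94 ± 0.43 (SE, adjusted p = 0.00184) and 1.94 ± 0.43 (SE, adjusted p = 0.00268). WRKY53 had 14.9, 12.8 and 24.9 CPM in DM1-DM2d adr1s and 11.7, 14.0 and 15.4 CPM in DM6-DM7 adr1s, against 2.01, 2.27 and 2.79 CPM in Col-0 adr1s, and rose by 2.90 ± 0.67 (SE, adjusted p = 0.0026) and 2.54 ± 0.67 (SE, adjusted p = 0.00868). For both genes the groups did not overlap, and the Col-0 adr1s mean was below that of either other Col-0 group. Called higher in DM1-DM2d adr1s but not in DM1-DM2d were 9 members: WRKY3, WRKY7, WRKY11, WRKY33, WRKY40, WRKY42, WRKY53, WRKY65 and WRKY69. In DM6-DM7 adr1s WRKY33 was the one such member. Neither count was made over all genes. The members called lower were WRKY23 and WRKY49, both in DM6-DM7 adr1s. WRKY49 had 0.638, 1.28 and 0.951 CPM there, against 1.55, 3.21 and 4.91 CPM in Col-0 adr1s (log2 fold change -1.75, SE 0.37, adjusted p = 0.00194). WRKY23 was lower (log2 fold change -0.69, adjusted p = 0.0164), a call lost without DM6-DM7 adr1s replicate 1 (-0.58, adjusted p = 0.0703) or Col-0 adr1s replicate 1 (-0.67, 0.0502). Other members with large changes were WRKY75, at 5.34 ± 0.60 (SE, adjusted p = 4.29e-06) for DM1-DM2d adr1s and 4.91 ± 0.61 (SE, adjusted p = 2.01e-05) in DM6-DM7 adr1s, and WRKY26, at 3.08 ± 0.33 (SE, adjusted p = 2.67e-06) and 1.76 ± 0.32 (SE, adjusted p = 0.000598); without Col-0 adr1s replicate 3 WRKY75 stood at 6.09 and 5.66.

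How far the effect of a DM pair depended on the ADR1 genes was read from the difference between its 2 effects, with the knockout effect subtracted. This difference sets label batches 1 and 2 against batch 3, so knockout, batch and age cannot be told apart. For DM1-DM2d it was higher for 17 members and lower for 11, against 26.0% higher and 32.5% lower among all genes, with medians of 0.37 for the members and -0.16 for all genes. For DM6-DM7 it was higher for 23 and lower for 3, against 14.9% higher and 16.3% lower, with medians of 0.77 and -0.0047. A rise that was larger with the ADR1 genes intact in both pairs was found for 7 members: WRKY4, WRKY14, WRKY18, WRKY25, WRKY29, WRKY48 and WRKY72. How many of all genes share this pattern was not counted.

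WRKY72 showed the largest positive difference for DM1-DM2d. It had 157, 156 and 122 CPM in DM1-DM2d and 0.332 and 0.255 CPM in Col-0 12 DAS, and 0.746, 0.468 and 0.978 CPM in DM1-DM2d adr1s and 0.130, 0 and 0.227 CPM in Col-0 adr1s. The difference was 6.40 ± 0.84 (SE, adjusted p = 6.07e-06), or 5.58 without Col-0 adr1s replicate 3, and for DM6-DM7 it was 2.28 ± 0.69 (SE, adjusted p = 0.0201). WRKY72 was highest in DM1-DM2d and under 1 CPM in every knockout library. WRKY8 had 3.11, 3.97 and 4.70 CPM in DM1-DM2d adr1s and 1.01, 0.423 and 0.421 CPM in Col-0 adr1s, and its DM1-DM2d difference was 3.75 ± 0.62 (SE, adjusted p = 7.35e-05), or 4.88 and 3.08 without Col-0 12 DAS replicate 1 and 2. WRKY9 had 3.63, 3.60 and 2.77 CPM in DM1-DM2d, against 0.0453 and 0.191 CPM in Col-0 12 DAS, and 0.143, 0.339 and 0.316 CPM in DM1-DM2d adr1s, against 0.261, 0.230 and 0.0972 CPM in Col-0 adr1s. It rose with the ADR1 genes intact and did not pass in the knockout (adjusted p = 0.634), with a difference of 4.38 ± 1.01 (SE, adjusted p = 0.00124), or 3.66 and 5.67 without Col-0 12 DAS replicate 1 and 2.

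WRKY50, WRKY29, WRKY18, WRKY2 and WRKY39 also had larger rises in DM1-DM2d with the ADR1 genes intact. The differences were 2.40 (adjusted p = 0.00117; 3.23 without Col-0 12 DAS replicate 1), 2.17 (0.00023), 1.71 (0.0047), 1.60 (5.35e-06) and 1.04 (3.42e-06), each by the edgeR test. WRKY39, linked to heat tolerance, had 57.7, 53.5 and 57.9 CPM in DM1-DM2d, against 25.8 and 25.1 CPM in Col-0 12 DAS, and 29.0, 28.3 and 30.8 CPM in DM1-DM2d adr1s, against 26.7, 28.1 and 27.3 CPM in Col-0 adr1s. Every DM1-DM2d library lay above every other library. For DM6-DM7 the largest positive differences were those of WRKY62 (5.39 ± 1.78 (SE, adjusted p = 0.0312)), WRKY71 (3.84 ± 0.74 (SE, adjusted p = 0.000915)), WRKY49 (2.57 ± 0.51 (SE, adjusted p = 0.0015)) and WRKY14 (2.38 ± 0.30 (SE, adjusted p = 2.46e-05)). That of WRKY62 rested on 1 count-bearing library: without Col-0 adr1s replicate 3 it was 0.16 (adjusted p = 0.881), and it also missed the threshold without Col-0 14 DAS replicate 2 (4.78, 0.0678) or 3 (4.90, 0.0631). Without Col-0 14 DAS replicate 1 it was 7.80, without DM6-DM7 adr1s replicate 3 it was 5.98, and without Col-0 adr1s replicate 1 it was 5.99. WRKY71 was at 5.16 without Col-0 14 DAS replicate 3. Among others called higher, WRKY18 was at 2.03 (adjusted p = 0.00246), WRKY60 at 1.73 (0.000403) and WRKY25 at 1.10 (0.000815).

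**Figure D4:**
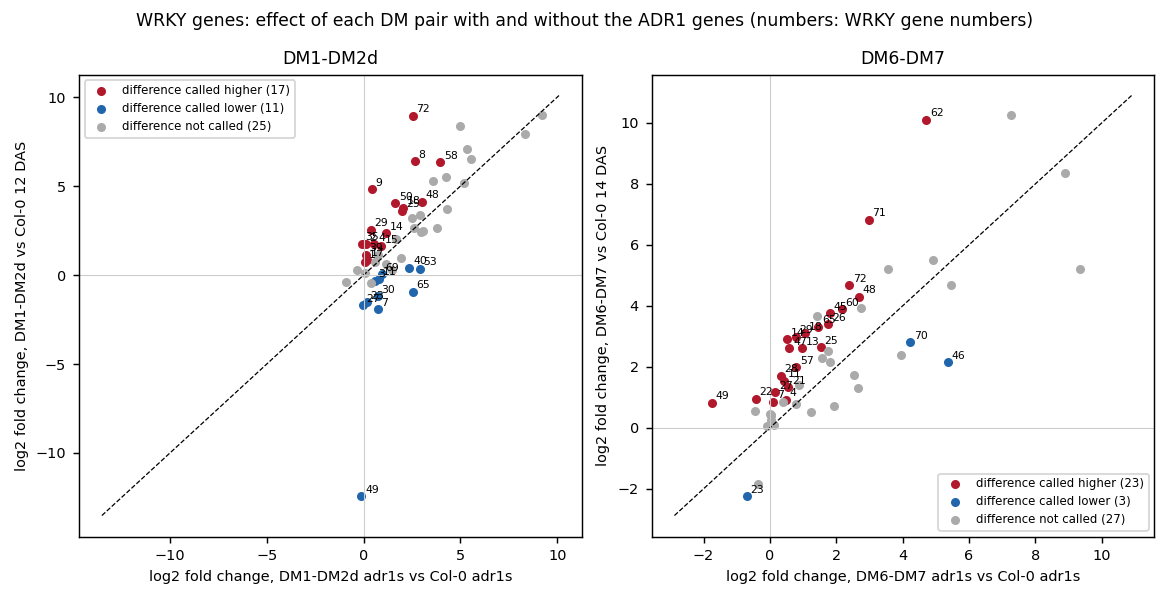
Log2 fold change of each of the 53 WRKY genes with the ADR1 genes intact (vertical axis) against its log2 fold change in the adr1s background (horizontal axis), for DM1-DM2d (left) and DM6-DM7 (right); the dashed line marks equal effects, and red and blue mark differences called higher or lower, labelled with the WRKY number. Red points, 17 on the left and 23 on the right, lie above the line, and blue points, 11 and 3, lie below it.

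For some members the difference was negative. For DM6-DM7 these were WRKY46 (-3.22 ± 0.61 (SE, adjusted p = 0.00113)), WRKY23 (-1.56 ± 0.29 (SE, adjusted p = 0.000757)) and WRKY70 (-1.43 ± 0.49 (SE, adjusted p = 0.0373)). WRKY23 fell further with the ADR1 genes intact (-2.25, against -0.69 in the knockout), whereas WRKY46 and WRKY70 rose less. WRKY46 and WRKY70 had higher levels in every DM6-DM7 library than in DM6-DM7 adr1s, and their Col-0 14 DAS levels were also above those of Col-0 adr1s: 13.7, 20.9 and 5.05 CPM in Col-0 14 DAS and 0.848, 0.615 and 1.23 CPM in Col-0 adr1s for WRKY46, and 27.6, 57.6 and 20.1 CPM in Col-0 14 DAS and 4.50, 3.73 and 4.67 CPM in Col-0 adr1s for WRKY70. The WRKY70 call was lost without DM6-DM7 replicate 2 or 3, Col-0 14 DAS replicate 2, DM6-DM7 adr1s replicate 3 or any of the 3 Col-0 adr1s libraries (differences from -1.51 to -0.94, adjusted p from 0.0578 to 0.0818). In edgeR it was also lost with no filter (adjusted p = 0.0502), a replicate block (0.0581) and only the libraries compared (0.0514). For DM1-DM2d the WRKY70 difference was not called in the main fit. It was called higher with RLE scaling (1.33), a minimum count of 50 (1.25), DESeq2 (1.33) and only the libraries compared (1.25). For DM1-DM2d the lower differences included WRKY65 (-3.49 ± 0.31 (SE, adjusted p = 3.92e-08)) and WRKY7 (-2.65 ± 0.23 (SE, adjusted p = 3.54e-08)), which fell in DM1-DM2d and rose in DM1-DM2d adr1s. WRKY65 had 7.79, 10.8 and 10.1 CPM in DM1-DM2d adr1s, against 1.43, 1.58 and 1.91 CPM in Col-0 adr1s (log2 fold change 2.54, SE 0.22, adjusted p = 1.81e-07). WRKY49 was at 3.40, 2.47 and 3.05 CPM in DM1-DM2d adr1s and 1.55, 3.21 and 4.91 CPM in Col-0 adr1s, where it did not pass (log2 fold change -0.12, SE 0.35, adjusted p = 0.826), while no read was found in DM1-DM2d.

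WRKY53 and WRKY40, which rose in DM1-DM2d adr1s but not in DM1-DM2d, had differences of -2.54 ± 0.92 (SE, adjusted p = 0.0269) and -1.96 ± 0.75 (SE, adjusted p = 0.035). The WRKY53 call was lost without DM1-DM2d replicate 2 (-2.48, adjusted p = 0.0517), Col-0 12 DAS replicate 2 (-1.36, 0.253), DM1-DM2d adr1s replicate 3 (-2.22, 0.0601) or Col-0 adr1s replicate 1 (-2.44, 0.0558), and it was -3.22 without Col-0 12 DAS replicate 1. The WRKY40 call was lost without DM1-DM2d replicate 2 or 3, Col-0 12 DAS replicate 2, DM1-DM2d adr1s replicate 3 or Col-0 adr1s replicate 1 or 2, with differences from -2.0 to -1.29. WRKY30 had a difference of -1.92 ± 0.66 (SE, adjusted p = 0.0193), lost without Col-0 12 DAS replicate 2 (-1.3, 0.146), and WRKY3, which acts with WRKY4 against necrotrophic fungi, one of -0.91 ± 0.22 (SE, adjusted p = 0.00176). WRKY7, WRKY11, WRKY27, WRKY49 and WRKY65 had a lower difference for DM1-DM2d and a higher one for DM6-DM7. WRKY23 had a lower difference in both pairs. It fell with the ADR1 genes intact in both lines and did not pass in DM1-DM2d adr1s (log2 fold change 0.16, SE 0.20, adjusted p = 0.566).

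The effects of the 2 pairs were also set against each other. With the ADR1 genes intact the DM1-DM2d effect exceeded the DM6-DM7 effect for 14 members and was below it for 14, against 22.0% and 27.2% of all genes, and the medians were 0.03 for the members and -0.08 for all genes. Age, label batch and DM pair differ together here. The largest differences upward were those of WRKY72 (4.27 ± 0.54 (SE, adjusted p = 6.93e-06)) and WRKY8 (4.24 ± 0.56 (SE, adjusted p = 1.2e-05)). WRKY8 was at 5.42 without Col-0 12 DAS replicate 1 and 3.62 without replicate 2. WRKY70 (2.69 ± 0.53 (SE, adjusted p = 0.000553)) and WRKY54 (1.82 ± 0.46 (SE, adjusted p = 0.0034)) also responded more in DM1-DM2d; WRKY70 was at 3.37 without Col-0 12 DAS replicate 1. WRKY51 (2.74 ± 0.99 (SE, adjusted p = 0.0319)) lost its call without DM1-DM2d replicate 2, Col-0 12 DAS replicate 2, DM6-DM7 replicate 3 or Col-0 14 DAS replicate 2, with values from 1.25 to 2.71, and was at 5.26 without Col-0 12 DAS replicate 1. WRKY46 (1.57 ± 0.60 (SE, adjusted p = 0.04)) lost its call without any one library of the 4 groups except Col-0 12 DAS replicate 1 and Col-0 14 DAS replicate 3. WRKY35 (1.35 ± 0.44 (SE, adjusted p = 0.0161)) lost its call without Col-0 12 DAS replicate 1 (1.28, adjusted p = 0.0618) and when only the libraries of the comparison were fitted (1.37, 0.0738).

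Downward the largest values after WRKY49 were those of WRKY41 (-5.10 ± 0.89 (SE, adjusted p = 0.00034)), whose fit rests on Col-0 14 DAS libraries with no counts, WRKY65 (-4.25 ± 0.31 (SE, adjusted p = 7.86e-09)) and WRKY71 (-4.16 ± 0.67 (SE, adjusted p = 6.01e-05)). WRKY13 (-3.08 ± 0.44 (SE, adjusted p = 1.7e-05)), a gene of stem lignification and flowering time, and WRKY7 (-2.77 ± 0.23 (SE, adjusted p = 3.88e-08)) were also lower. WRKY71 was at -5.54 without Col-0 14 DAS replicate 3. WRKY47 (AT4G01720) had 91.3, 76.7 and 89.1 CPM in DM6-DM7, against 11.0, 14.8 and 16.5 CPM in Col-0 14 DAS, a wider gap than the 47.5, 45.1 and 41.8 CPM in DM1-DM2d, against 29.1 and 29.5 CPM in Col-0 12 DAS, with a difference of -1.99 ± 0.24 (SE, adjusted p = 2.32e-06). WRKY60 (-1.23 ± 0.31 (SE, adjusted p = 0.0032)) had the same direction. WRKY30 (-1.72 ± 0.63 (SE, adjusted p = 0.0328)) was lower too, but its call was lost without DM1-DM2d replicate 2 or 3, Col-0 12 DAS replicate 2, DM6-DM7 replicate 1 or 3 or Col-0 14 DAS replicate 3, with values from -1.75 to -1.05 and adjusted p from 0.0516 to 0.252.

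In the knockout background the 2 lines lay in 1 label batch, but their titles give no age and the protocols give 12 DAS for DM1-DM2d and 14 DAS for DM6-DM7, so age and DM pair cannot be told apart. DM1-DM2d adr1s was higher than DM6-DM7 adr1s for 11 members and lower for 1, against 5.42% higher and 3.49% lower among all genes, and the median was 0.15 for the members and -0.01 for all genes. WRKY65 had 7.79, 10.8 and 10.1 CPM in DM1-DM2d adr1s and 4.15, 4.41 and 5.02 CPM in DM6-DM7 adr1s (log2 fold change 1.08, SE 0.20, adjusted p = 0.00346), and WRKY45 had 21.8, 25.5 and 22.0 CPM in DM1-DM2d adr1s and 10.5, 9.12 and 12.9 CPM in DM6-DM7 adr1s (log2 fold change 1.09, SE 0.21, adjusted p = 0.00443). Both genes were higher in every DM1-DM2d adr1s library. WRKY57 (0.88 ± 0.19 (SE, adjusted p = 0.00769)), linked to drought tolerance, and WRKY23 (0.85 ± 0.21 (SE, adjusted p = 0.0162)) were also higher. The calls of WRKY57 and WRKY23 were not tried with libraries left out or under other settings. Calls of WRKY42 (1.82), WRKY49 (1.63), WRKY26 (1.32) and WRKY7 (0.63) each ended without at least 1 library, among them DM6-DM7 adr1s replicate 1 for all 4 (adjusted p of 0.0918, 0.0669, 0.0799 and 0.0732 by edgeR). WRKY42 was at 1.17 without DM1-DM2d adr1s replicate 3. The member lower in DM1-DM2d adr1s was WRKY41, with 0.0574, 0.0645 and 0.0473 CPM, against 0.191, 0.192 and 0.349 CPM in DM6-DM7 adr1s (log2 fold change -2.08, SE 0.41, adjusted p = 0.00727). WRKY70 did not pass between the lines (log2 fold change -0.00, SE 0.34, adjusted p = 1).

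Beyond the 53 members, the annotation names 16 other WRKY genes without receptor domains, of which 14 were tested. For the gene lists from here on, counts stand against shares of all genes called higher of 36.6% in DM1-DM2d, 35.0% in DM6-DM7, 23.9% for DM1-DM2d adr1s and 18.6% for DM6-DM7 adr1s, and called lower of 36.4%, 29.7%, 18.8% and 12.6% in the same order. Of the 14, 10 (71.4%) were higher and 1 lower in DM1-DM2d, and 5 (35.7%) higher and 1 lower in DM6-DM7, a share near that of all genes. The lower one was WRKY44 in both lines, with log2 fold changes of -2.59 in DM1-DM2d and -3.72 in DM6-DM7. WRKY59 rose most among the 14 in DM1-DM2d, with a mean of 254 CPM against 0.294 CPM in Col-0 12 DAS (log2 fold change 9.72). That exceeds the largest rise of the 53 members there (9.02), and WRKY59 was called higher in all 4 comparisons with Col-0. With the ADR1 genes knocked out, 6 of the 14 were higher in DM1-DM2d adr1s and 4 higher in DM6-DM7 adr1s. Proteins of the VQ family bind WRKY factors, and 10 of 12 listed genes were tested. Of these 8 rose in DM1-DM2d and 9 in DM6-DM7, and in the knockout 7 rose for DM1-DM2d and 6 for DM6-DM7. JAV1, a repressor of jasmonate defence that works with WRKY51, rose by 3.97 ± 0.18 (SE, adjusted p = 2.75e-12) in DM1-DM2d and 2.25 ± 0.14 (SE, adjusted p = 9.1e-10) in DM6-DM7, and by 2.05 and 1.60 in the adr1s lines. SIB1, which binds WRKY33, rose by 4.57 ± 0.37 (SE, adjusted p = 2.09e-07) for DM1-DM2d adr1s and 4.34 ± 0.37 (SE, adjusted p = 6.85e-07) in DM6-DM7 adr1s, and by 1.75 and 0.85 in DM1-DM2d and DM6-DM7.

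Of 9 kinases known to act on WRKY factors or upstream of those kinases, all rose in DM1-DM2d and in DM6-DM7, and 7 rose and 1 fell in each knockout line. CPK11, a calcium-dependent kinase, rose by 2.50 ± 0.12 (SE, adjusted p = 6.43e-12) in DM1-DM2d and 0.29 ± 0.10 (SE, adjusted p = 0.0157) in DM6-DM7 and was the one that fell, with changes of -0.73 for DM1-DM2d adr1s and -0.54 for DM6-DM7 adr1s. MKK5, upstream of MPK3 and MPK6, rose by 2.15 ± 0.13 (SE, adjusted p = 1.04e-10) in DM1-DM2d and 1.04 ± 0.11 (SE, adjusted p = 2.66e-07) in DM6-DM7. CPK11 and the targets below were named after their values were seen. The 16 known WRKY target genes had 10 (62.5%) higher in DM1-DM2d, 9 higher and 1 lower in DM6-DM7, 13 higher and 1 lower in DM1-DM2d adr1s, and 9 higher and 2 lower in DM6-DM7 adr1s. ICS1, the salicylic acid synthesis gene bound by WRKY28 and WRKY46, averaged 685 ± 66.8 CPM in DM1-DM2d (SD, n = 3), against 24.9 ± 24.0 CPM in Col-0 12 DAS (n = 2). PAD3, the camalexin gene controlled by WRKY33, did not pass in DM6-DM7 (log2 fold change 1.09, SE 0.73, adjusted p = 0.202) and rose by 4.76 ± 0.94 (SE, adjusted p = 0.000778) for DM1-DM2d adr1s and 4.64 ± 0.94 (SE, adjusted p = 0.00144) in DM6-DM7 adr1s. PHT1;1, a phosphate transporter gene bound by WRKY45 and WRKY42, rose by 5.21 ± 0.28 (SE, adjusted p = 3.25e-10) in DM6-DM7 and did not pass in DM1-DM2d (log2 fold change -0.24, SE 0.28, adjusted p = 0.466). PHO1, the target repressed by WRKY6 and WRKY42, was lower in DM6-DM7 (-1.26) and, with the ADR1 genes knocked out, for DM1-DM2d (-0.62) and DM6-DM7 (-0.94). It did not pass in DM1-DM2d (log2 fold change 0.12, SE 0.24, adjusted p = 0.668).

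For 10 members, WRKY1, WRKY2, WRKY4, WRKY9, WRKY29, WRKY33, WRKY40, WRKY41, WRKY53 and WRKY69, another annotated gene overlaps on the opposite strand. The libraries were strand-specific, but whether strand was used in counting is not given in the sources used here, so reads of these 10 genes may include reads of the overlapping gene.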

How the data were processed

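The authors deposited 1 table of raw gene counts for 20 RNA-seq libraries, whole-number counts that had not been normalized. Per the submitters' processing notes, the tools of the series included featureCounts 2.0.1 besides HISAT2 2.2.1, fastp 0.23.2 and, for tests, DESeq2 1.34.0; the build named is TAIR10; per the labels, libraries were strand-specific. The strand and read-pair settings of the counting are not given in the sources used here. Library totals were 48360933 to 127276992 counts. Of values below 20 counts, 64.9% to 78.0% per library were even numbers, so counting intervals may be too narrow. Accessibility data of the series were not analysed here.

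All 20 libraries were fitted together in edgeR 4.0.16 (R 4.3.3) with 1 term per group, TMM scaling, filterByExpr with a minimum count of 10 and the robust quasi-likelihood test; 23349 of 32833 genes passed. Benjamini-Hochberg adjustment ran over all of them per contrast, with a threshold of 0.05, and the SE is the size of the log2 fold change divided by the root of the F statistic. The 3 label batches hold different groups, so no batch term could be fitted. Coordinates and promoters came from RefSeq, TAIR10.1. The scripts were tested on simulated data. The 53 members and the lists were chosen with earlier results of these data known. Full statistics were given, per comparison of groups, for the 5 highest and 5 lowest called members with a mean of at least 1 CPM, for the 4 highest and 4 lowest per difference, for the most significant call of each WRKY group in each direction, and for groups III and IIa. Some members outside this rule are given too, and their single calls were not tried under the alternatives. Alternatives were RLE and upper-quartile scaling, other filters, DESeq2 1.42.0, stricter thresholds, fits of only the libraries compared, a replicate block, each library left out in turn and, for promoters, the core motif.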

Additional observations from a re-analysis of the deposited data

Results flagged for a closer look

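Effects of the same kind differed between groups by a test of the difference itself, in 1 edgeR quasi-likelihood fit with Benjamini-Hochberg adjustment. Label batch and age go with these differences and cannot be told apart from them. The DM1-DM2d effect with the ADR1 genes intact differed from that in the knockout for 17 members upward and 11 downward. On the log2 scale the named genes with a higher value were WRKY72 (6.40), WRKY9 (4.38), WRKY8 (3.75), WRKY50 (2.40), WRKY29 (2.17), WRKY18 (1.71), WRKY2 (1.60) and WRKY39 (1.04). Those with a lower value were WRKY3 (-0.91), WRKY30 (-1.92), WRKY40 (-1.96), WRKY53 (-2.54), WRKY7 (-2.65), WRKY65 (-3.49) and WRKY49 (-12.33). The DM6-DM7 effect with the ADR1 genes intact differed likewise from that in the knockout for 23 members upward and 3 downward. On the log2 scale the named genes with a higher value were WRKY62 (5.39), WRKY71 (3.84), WRKY49 (2.57), WRKY14 (2.38), WRKY18 (2.03), WRKY47 (2.02), WRKY60 (1.73), WRKY28 (1.37), WRKY25 (1.10) and WRKY21 (0.77). Those with a lower value were WRKY70 (-1.43), WRKY23 (-1.56) and WRKY46 (-3.22). The DM1-DM2d effect differed from the DM6-DM7 effect for 14 members upward and 14 downward. On the log2 scale the named genes with a higher value were WRKY72 (4.27), WRKY8 (4.24), WRKY51 (2.74), WRKY70 (2.69), WRKY54 (1.82), WRKY46 (1.57), WRKY35 (1.35), WRKY2 (1.28) and WRKY39 (1.05). Those with a lower value were WRKY3 (-1.10), WRKY60 (-1.23), WRKY30 (-1.72), WRKY47 (-1.99), WRKY7 (-2.77), WRKY71 (-4.16), WRKY65 (-4.25), WRKY41 (-5.10) and WRKY49 (-13.26). The WRKY49 values that include DM1-DM2d and the WRKY41 value rest on groups without counts and are fitted values. Some of these calls were lost under at least 1 alternative, stricter thresholds included. They were WRKY3, WRKY30, WRKY40 and WRKY53 for the DM1-DM2d difference and WRKY21, WRKY62 and WRKY70 for the DM6-DM7 difference. For DM1-DM2d minus DM6-DM7 they were WRKY30, WRKY35, WRKY46 and WRKY51. The WRKY62 difference was 0.16 without Col-0 adr1s replicate 3.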

How the results depend on the processing

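Depth did not limit most members, but 11 had under 10 counts in a Col-0 adr1s library. They were WRKY9, WRKY31, WRKY38, WRKY41, WRKY51, WRKY55, WRKY58, WRKY62, WRKY71, WRKY72 and WRKY75. In Col-0 12 DAS this held for WRKY9, WRKY38, WRKY41, WRKY51, WRKY55 and WRKY62. In Col-0 14 DAS it held for WRKY9, WRKY38, WRKY41, WRKY58, WRKY62 and WRKY71. Changes and differences of these members, such as those of WRKY72, WRKY9 and WRKY71, rest on such low controls. The counts of called members stayed within 1.5 times under RLE scaling, no filter, a minimum count of 50 and without organelle genes. With upper-quartile scaling 10 members were lower in DM1-DM2d and 2 in both lines, and the members' medians were 1.45 in DM1-DM2d and 1.95 in DM6-DM7. With DESeq2 5 were lower in the DM6-DM7 difference and 2 in the comparison of the knockout lines. At an adjusted p of 0.01 there was 1 lower in DM6-DM7 adr1s, 7 lower in the DM1-DM2d difference, 9 higher for DM1-DM2d minus DM6-DM7 and 4 higher in the comparison of the knockout lines; at 2-fold or more there was 1 lower in DM6-DM7 adr1s and 5 higher in the last comparison. With only the libraries compared, 2 were lower in DM1-DM2d adr1s. The core TTGAC was in 32 promoters. Leaving out 1 library gave 7 to 11 lower in the DM1-DM2d difference, 2 to 5 lower in the DM6-DM7 difference, 1 to 2 lower in DM6-DM7 adr1s and 4 to 10 higher in the comparison of the knockout lines. Signs turned for values that had not passed. In the DM1-DM2d difference WRKY41 was 0.051 with RLE, 1.11 with DESeq2 and 0.13 with only the libraries compared, and WRKY60 -0.22 with upper-quartile scaling. For DM1-DM2d minus DM6-DM7 WRKY55 was -0.074 with upper-quartile scaling. Between the knockout lines WRKY70 was 0.0091 with upper-quartile scaling, 0.0021 with a minimum count of 50, 0.0011 with the replicate block and 0.013 with only the libraries compared. With 1 library left out the ranges were, in the DM1-DM2d difference, -0.17 to 0.13 for WRKY41, -0.17 to 0.22 for WRKY60, -3.27 to 2.37 for WRKY38, -2.42 to 1.03 for WRKY55 and -1.85 to 4.36 for WRKY62. In the DM6-DM7 difference they were -1.37 to 0.54 for WRKY53 and -3.61 to 0.044 for WRKY38. For DM1-DM2d they were -0.13 to 1.04 for WRKY40 and -0.36 to 1.5 for WRKY53. For DM1-DM2d minus DM6-DM7 they were -0.89 to 1.67 for WRKY55, -0.17 to 3.31 for WRKY38 and -0.21 to 0.17 for the members' median. Between the knockout lines they were -0.26 to 0.22 for WRKY70, -0.22 to 0.63 for WRKY38, -0.012 to 0.51 for WRKY53, -0.38 to 0.28 for WRKY54, -0.14 to 0.88 for WRKY62 and -0.83 to 0.21 for WRKY30. The cause of these shifts was not tested. Replicate numbers did not pair the samples: same-numbered libraries correlated between -0.11 and 0.18 over 14 pairs, and 6 of 14 libraries matched their own number best. With the replicate block the members higher and lower were 36 and 6 in DM1-DM2d, 43 and 2 in DM6-DM7, 38 and 0 for DM1-DM2d adr1s, 33 and 2 for DM6-DM7 adr1s, 16 and 10 in the DM1-DM2d difference, 22 and 2 in the DM6-DM7 difference, 12 and 14 for DM1-DM2d minus DM6-DM7, and 10 and 1 between the knockout lines.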
